A study of Mus musculus with 6 samples.

Results

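The genes of protein folding in the endoplasmic reticulum (ER) and of the unfolded protein response were followed here in mouse dental epithelial organoids (DEOs). The 32 members were listed by name, and all 32 were found as single entries among the 47360 gene symbols of the expression table. They fall into 16 genes of chaperones and secretion, 4 target genes of the transcription factor Atf4 (Ddit3, Trib3, Chac1 and Asns), 6 genes of ER-associated degradation, and 6 sensors, transcription factors and feedback genes. Chaperones and secretion were set against the Atf4 targets. DEOs were grown from adult dental epithelial stem cells of the apical incisor buds of 9-week-old female, wild-type C57BL/6J mice, and RNA was sequenced after 14 days, with 1 library for each medium. All media held N-acetylcysteine, the compound Y27632, media conditioned with Wnt3a and with R-spondin1, 100 µg/ml EGF and Noggin, a BMP antagonist, at 200 µg/ml. Neither FGF10 nor DBZ was added in +N. Dibenzazepine (DBZ), an inhibitor of the γ-secretase needed for Notch signalling, was added at 10 µM in +ND, FGF10 at 100 µg/ml in +NF, and both in +NFD. The comparisons address how Notch inhibition and FGF10 alter the transcriptome of the organoids. The labels do not say how many mice the cells came from.

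Secreted and membrane proteins enter the ER through the Sec61 translocon and are folded there by the Hsp70 chaperone BiP (encoded by Hspa5), the lectin chaperones calnexin and calreticulin, and protein disulfide isomerases. When unfolded proteins accumulate, 3 sensors respond: Atf6 and the Ire1-Xbp1 branch raise chaperone and degradation genes, and Perk (encoded by Eif2ak3) phosphorylates eIF2α and so favours translation of Atf4. Atf4 is also raised by other eIF2α kinases, for example in amino acid shortage, and is known as an activator of amino acid synthesis and transport genes. Ameloblasts, the secretory cells of dental epithelium, depend on this machinery to export enamel matrix proteins.

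The promoters of both groups are shown because different response elements are known for the ATF6 and Atf4 arms. RefSeq promoter windows on GRCm38.p6, of 250 bases before and 50 after the start of transcription, were matched for 27 of the 32 members (not for Manf, Hyou1, Sec61a1, Derl1 and Atf6). The ER stress response element (ERSE, searched on both strands as CCAAT and CCACG with 9 bases between them) was present in 9 of these 27 members, against 39 of 32851 windows of all genes (0.119%). Counted by gene, as the members are, the ERSE was in 17 of 9822 genes at an FPKM of 1 or more in a library (0.173%). It was found in 7 of 13 chaperone and secretion genes with a window and in 0 of 4 Atf4 targets. The matches in the 7 are given below 5′ to 3′ on the strand of the gene, with the ERSE or its reverse complement in capitals, and the match in Hspa5 lies inside the gene as the table places it.
Hspa5 (chr2:34772020-34772048, plus strand): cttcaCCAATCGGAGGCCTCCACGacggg
Hsp90b1, distal match (chr10:86705598-86705694, minus strand): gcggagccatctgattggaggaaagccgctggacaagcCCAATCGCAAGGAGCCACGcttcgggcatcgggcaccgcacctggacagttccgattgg
Hsp90b1, proximal match (chr10:86705510-86705591, minus strand): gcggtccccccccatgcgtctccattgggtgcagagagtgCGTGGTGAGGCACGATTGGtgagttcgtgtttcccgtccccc
Calr (chr8:84847035-84847133, minus strand): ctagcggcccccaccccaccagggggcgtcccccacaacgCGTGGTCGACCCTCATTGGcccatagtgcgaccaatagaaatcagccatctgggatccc
Canx (chr11:50325760-50325858, minus strand): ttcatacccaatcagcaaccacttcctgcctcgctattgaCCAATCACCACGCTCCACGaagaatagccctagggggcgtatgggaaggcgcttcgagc
Pdia6 (chr12:17266451-17266544, plus strand): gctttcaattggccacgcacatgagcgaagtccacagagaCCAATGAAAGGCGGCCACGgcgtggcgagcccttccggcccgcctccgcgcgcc
Dnajc3 (chr14:118937787-118937885, plus strand): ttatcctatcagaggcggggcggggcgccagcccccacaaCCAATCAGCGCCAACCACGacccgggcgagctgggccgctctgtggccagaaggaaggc
Creld2 (chr15:88819480-88819578, plus strand): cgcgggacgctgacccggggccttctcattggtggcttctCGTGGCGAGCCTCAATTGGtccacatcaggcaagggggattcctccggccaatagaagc
The other 2 members with an ERSE were Derl3 and Syvn1, both of ER-associated degradation. The C/EBP-ATF response element (CARE, searched as TGATGNAA on both strands) is bound by Atf4 together with C/EBP proteins. It was in 1304 of 32851 windows (3.97%), in 269 of the 9822 genes (2.74%), and in 4 of the 27 members. These were 3 of the 4 Atf4 targets and Herpud1, and 0 of the 13 chaperone and secretion genes. They are written in the same way, with the CARE or its reverse complement in capitals.
Asns (chr6:7693214-7693243, minus strand): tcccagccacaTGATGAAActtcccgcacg
Chac1 (chr2:119351009-119351096, plus strand): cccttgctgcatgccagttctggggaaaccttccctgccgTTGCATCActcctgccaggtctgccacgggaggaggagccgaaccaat
Trib3 (chr2:152344028-152344057, minus strand): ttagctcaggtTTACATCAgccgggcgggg
Herpud1 (chr8:94386277-94386364, plus strand): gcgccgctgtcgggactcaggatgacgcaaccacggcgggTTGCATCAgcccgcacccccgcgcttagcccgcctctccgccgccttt
The matches began 23 bases before the RefSeq start in Asns, 193 before it in Chac1, 112 before it in Herpud1 and 15 bases after it in Trib3. Ddit3 had no match in its window. The unfolded protein response element (UPRE, TGACGTGG, both strands) was in 0 of the 27 members and in 222 of 32851 windows (0.676%). Of the 9822 genes, 105 held it (1.07%). A match describes the letters of these windows only.

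Values are the authors' FPKM, that is, fragments scaled to transcript length and library size, so that levels can be compared between genes. Unlabelled runs of 4 values are in the order +N, +ND, +NF and +NFD. Each ratio is a log2((FPKM + 1)/(FPKM + 1)), and genes called 2-fold or 1.5-fold different between media were counted on this ratio. The added 1 makes differences of low genes look smaller, so folds of single genes are given on FPKM as deposited. A gene was compared if the higher of the compared libraries reached an FPKM of 1, which all 32 members did in each comparison. With 1 library per medium there was no replicate check, no test was made, and a difference between media cannot be told apart from one between any 2 cultures. From the smallest steps between low FPKM values, depth was estimated at between 21.4 M (+ND) and 27.8 M (+N) fragments, and 95% intervals on folds were computed from fragment numbers estimated in this way. These intervals cover counting error only. The median log2 ratio of all genes was 0.10 in +ND against +N, 0.05 in +NFD against +NF, 0.12 in +NF against +N and 0.09 in +NFD against +ND. In bulk RNA, fewer cells of a type and less RNA per cell cannot be told apart.

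The members spanned a wide range of levels, and most varied little among the media. The most abundant by mean were Pdia3 (318 to 420 FPKM) and Calr (324 to 465 FPKM), and the lowest was Derl3 (0.648 to 2.21 FPKM). Derl3 was also the 1 member that did not reach an FPKM of 1 in every library. The highest library exceeded the lowest by less than 1.5-fold in 19 of 32 members (48.8% of the 12428 genes compared in all comparisons), and by at least 2-fold in 6 (23.5% of these genes). The 6 members were Chac1 (4.17-fold), Trib3 (3.99-fold), Derl3 (3.42-fold), Asns (3.40-fold), Sdf2l1 (2.14-fold) and Herpud1 (2.104-fold). +NFD was the highest library for 18 of the 32 members (32.7% of the same genes) and +N the lowest for 13 (42.4%). The summed fibroblast markers (583 FPKM) and secretory ameloblast markers (352 FPKM) were also highest in +NFD, and their part in these levels was not tested. Summed, the members made up 0.359% (+N), 0.454% (+ND), 0.436% (+NF) and 0.519% (+NFD) of all FPKM.

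**Figure D1:**
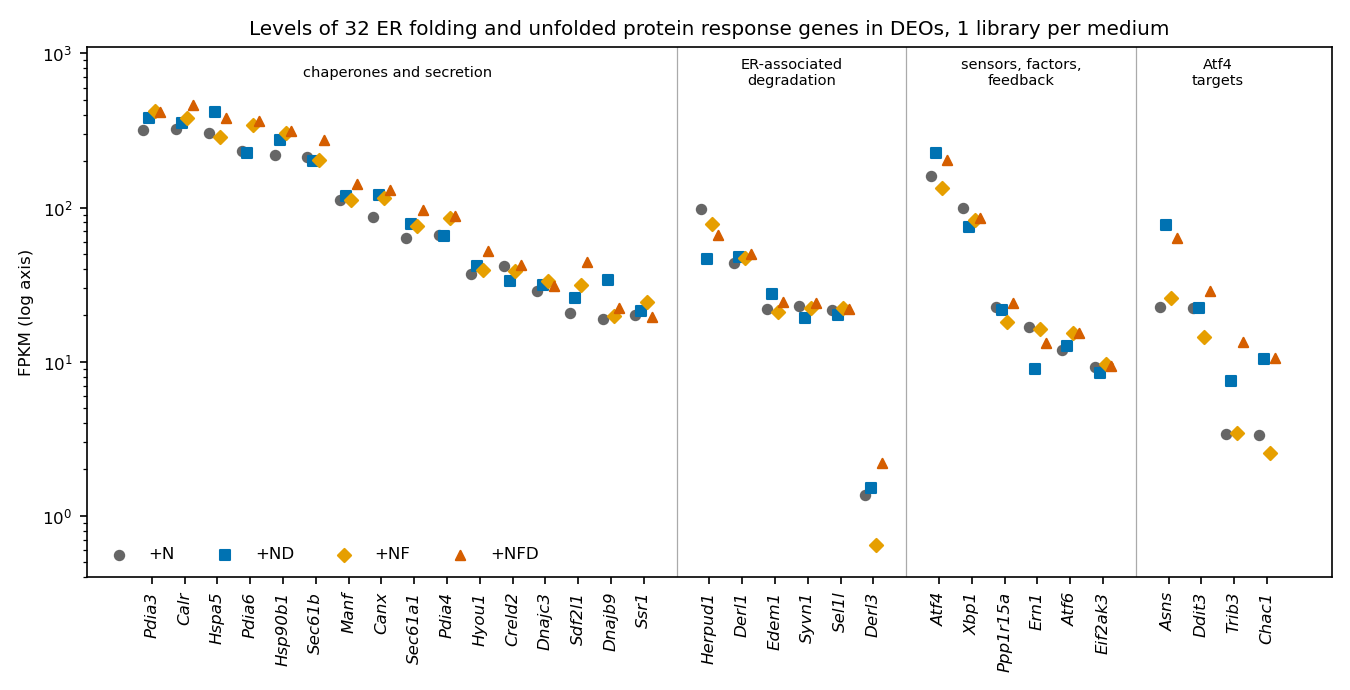
FPKM (log axis) of the 32 members in the 4 media, 1 point per library, ordered within each group by mean level. The 2 DBZ media lie above the other 2 for Asns, Trib3 and Chac1, and also for Atf4 and for chaperone genes such as Hspa5 and Canx. Most chaperone and secretion genes lie close together.

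Asns, Chac1 and Trib3, 3 of the 4 Atf4 targets, had the highest log2 ratios of the members with DBZ, both without and with FGF10. Ratios with DBZ were above 0 in 20 of 32 members without FGF10 (background 58.2%) and in 24 with FGF10 (background 57.2%). In +ND against +N, 3 of the 32 members were at least 2-fold different, against 11.2% of 13173 genes compared. Of these, Asns and Chac1 were higher (background 5.88%) and Herpud1 was lower (background 5.29%). In +NFD against +NF, 3 members were at least 2-fold different (background 6.41%): Asns, Chac1 and Trib3 were at least 2-fold higher (background 3.72% of 13349 genes) and 0 members were 2-fold lower (background 2.69%). At 1.5-fold, Trib3 and Dnajb9 joined the higher members without FGF10 (4 in all, background 17.3%) and Ern1 the lower (2 in all, background 11.6%). With FGF10, Ddit3, Derl3 and Atf4 joined the higher (6 in all, background 7.57%), and 0 were lower (background 6.17%). The median log2 ratio of the 4 Atf4 targets was 1.17 without FGF10 and 1.47 with FGF10. Of the 16 chaperone and secretion genes, 12 and 13 were above 0 (background 58.2% and 57.2%). Their median was 0.15 and 0.17, where the medians of all genes were 0.10 and 0.05. Without FGF10 the chaperone and secretion median was 0.032 under upper-quartile scaling and 0.043 after centring on the median of all genes. As reported, the medians of the groups thus lay 1.03 and 1.30 apart on the log2 scale. The wider list of other Atf4 targets, described below, had lower medians, of 0.59 over 35 genes without FGF10 and 0.35 over 36 with FGF10. Epithelial markers also differed between +ND and +N, with 6 of 7 lower and a median log2 ratio of -0.81, and their part in these ratios was not tested.

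Asns (chr6:7675169-7693254, minus strand, GRCm38) encodes asparagine synthetase. It was at 22.5 (+N) and 26.0 (+NF) FPKM without DBZ and at 76.7 (+ND) and 63.1 (+NFD) FPKM with DBZ. Both DBZ libraries were above both libraries without DBZ. The fold was 3.40 without FGF10 (95% counting interval 3.19 to 3.63) and 2.43 with FGF10 (2.28 to 2.58). As high a log2 ratio was seen in 1.82% of genes compared without FGF10 and in 2.62% with FGF10.

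Chac1 (chr2:119351229-119354381, plus strand), which encodes an enzyme that degrades glutathione, was at 3.35 (+N) and 2.54 (+NF) FPKM without DBZ and at 10.4 (+ND) and 10.6 (+NFD) FPKM with DBZ. The DBZ libraries were almost equal. The fold was 3.09 without FGF10 (2.56 to 3.77) and 4.17 with FGF10 (3.40 to 5.17), and 1.49% of genes compared had as high a log2 ratio in the latter comparison. Trib3 (chr2:152337422-152344032, minus strand), which encodes a pseudokinase that binds Akt and Atf4, was at 3.39 (+N) and 3.47 (+NF) FPKM without DBZ and at 7.54 (+ND) and 13.5 (+NFD) FPKM with DBZ. +NFD was the highest library and +ND the next. The fold was 2.23 without FGF10 (1.85 to 2.67) and 3.89 with FGF10 (3.32 to 4.59), and with the added 1 the log2 ratio without FGF10 was 0.96, just under 2-fold.

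Ddit3 (chr10:127290774-127296288, plus strand) encodes Chop, a transcription factor linked to cell death under lasting ER stress. It was at 22.2 (+N) and 14.5 (+NF) FPKM without DBZ and at 22.2 (+ND) and 28.9 (+NFD) FPKM with DBZ. +NF was the lowest library and +NFD the highest, while +N and +ND were alike. The fold with DBZ was 0.998 without FGF10 (0.881 to 1.13) and 1.99 with FGF10 (1.76 to 2.25). Ddit3 shares 68 bases with Mars on the opposite strand, a methionyl-tRNA synthetase gene at 33.7 to 49.5 FPKM, and since the strand setting is not given in the sources used here, their fragments cannot be told apart in that stretch. Atf4 itself (chr15:80255184-80257540, plus strand) was at 160 (+N) and 134 (+NF) FPKM without DBZ and at 225 (+ND) and 204 (+NFD) FPKM with DBZ. Both DBZ libraries were again above the others, with a fold of 1.40 without FGF10 (1.36 to 1.44) and 1.52 with FGF10 (1.48 to 1.57). Set against Atf4 within each library, the FPKM ratio of Asns to Atf4 was 0.141, 0.341, 0.193 and 0.309, while that of Ddit3 to Atf4 was 0.139, 0.0987, 0.108 and 0.142, lower in +ND than in +N.

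**Figure D2:**
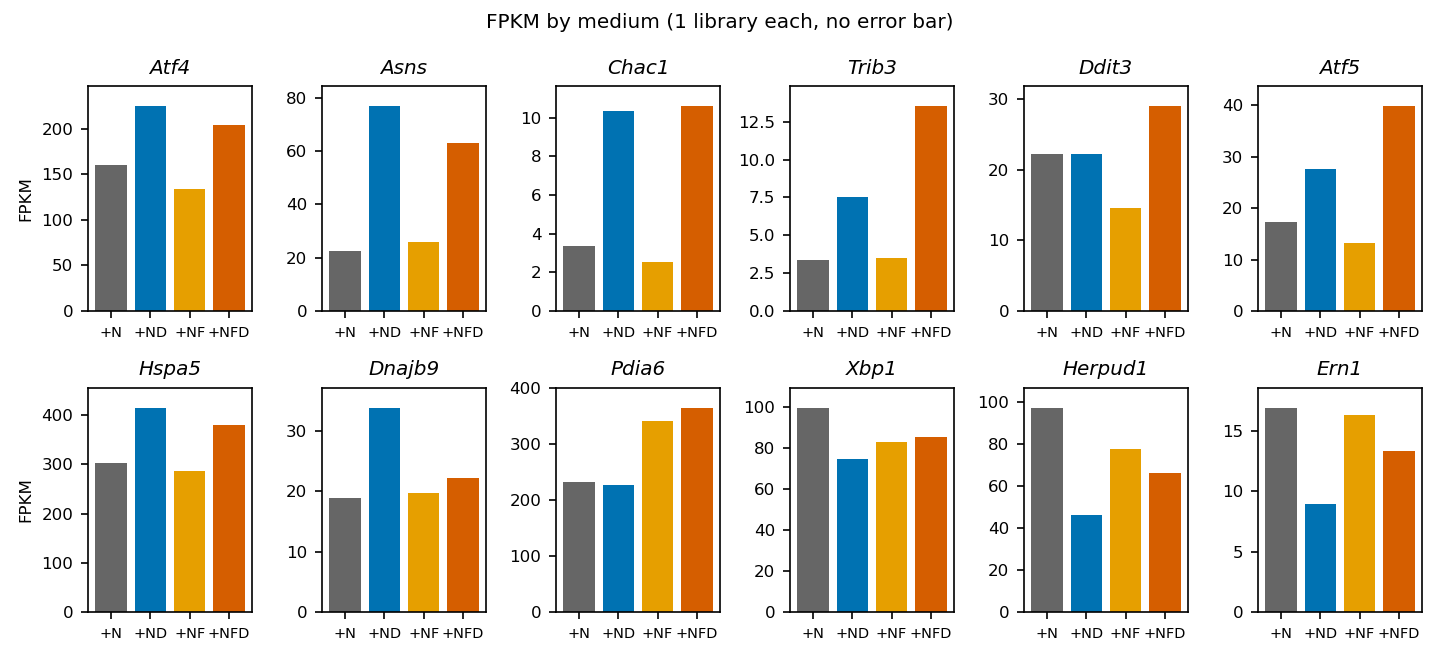
FPKM in each medium for Atf4, its 4 targets among the members and Atf5 (top), and for Hspa5, Dnajb9, Pdia6, Xbp1, Herpud1 and Ern1 (bottom), 1 library per bar and axes from 0. Asns, Chac1 and Trib3 were higher in +ND and +NFD than in +N and +NF, as were Atf4, Atf5, Hspa5 and Dnajb9. Pdia6 was higher in +NF and +NFD, and Herpud1 and Ern1 were lowest in +ND.

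The chaperones of the ER lumen differed less. Hspa5 (chr2:34771970-34777547, plus strand), which encodes BiP, was at 303 (+N) and 287 (+NF) FPKM without DBZ and at 414 (+ND) and 379 (+NFD) FPKM with DBZ. The DBZ libraries were the higher ones, with a fold of 1.37 without FGF10 (1.35 to 1.39) and 1.32 with FGF10 (1.30 to 1.34). As high a log2 ratio was seen in 24.2% and 12.7% of genes compared. Relative to Hspa5 within a library, Asns was at 0.0744, 0.185, 0.0906 and 0.166. Chac1 was at 0.0110, 0.0250, 0.00885 and 0.0279 times Hspa5. Trib3 was at 0.0112, 0.0182, 0.0121 and 0.0356 times Hspa5. These 3 ratios were higher in each DBZ library than in both libraries without DBZ. The ratio of Ddit3 to Hspa5 was 0.0733, 0.0535, 0.0507 and 0.0763, lower in +ND than in +N and higher in +NFD than in +NF.

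Hsp90b1, Calr, Canx and Hyou1 had +N as their lowest library, and Manf had +NF. Hsp90b1, the ER form of Hsp90, was at 219 (+N) and 303 (+NF) FPKM without DBZ and at 275 (+ND) and 314 (+NFD) FPKM with DBZ. Calr (calreticulin) was at 324, 355, 381 and 465 FPKM in +N, +ND, +NF and +NFD, and Canx (calnexin) at 86.2, 120, 115 and 131. For both, +NFD was highest. Hyou1, a nucleotide exchange factor for BiP, was at 37.3, 41.8, 39.6 and 52.0 FPKM, and Manf, a secreted stress-induced factor, at 112, 119, 111 and 141. +NFD stood above the other libraries for both. Manf overlaps Rbm15b and Vprbp, whose FPKM reached at most 13.0% of that of Manf.

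The BiP co-chaperones did not follow a single order. Dnajb9, which encodes ERdj4, was at 18.9 (+N) and 19.7 (+NF) FPKM without DBZ and at 33.7 (+ND) and 22.2 (+NFD) FPKM with DBZ. +ND stood alone, at 1.79-fold +N (1.66 to 1.92), while the fold with DBZ in the presence of FGF10 was 1.13 (1.04 to 1.21). Dnajc3, which encodes p58IPK, ranged from 28.9 FPKM in +N to 33.4 in +NF. Sdf2l1, a partner of ER J-domain proteins, was at 20.8 (+N) and 25.9 (+ND) FPKM without FGF10 and at 31.5 (+NF) and 44.4 (+NFD) FPKM with FGF10. Its level was higher with each of the 2 additions and highest with both. Creld2, a further ER stress gene, was at 42.0, 33.6, 38.9 and 42.3 FPKM in +N, +ND, +NF and +NFD, with +ND the lowest.

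The 3 disulfide isomerases had a higher median log2 ratio with FGF10 than with DBZ. Pdia6 was at 232 (+N) and 227 (+ND) FPKM without FGF10 and at 341 (+NF) and 364 (+NFD) FPKM with FGF10, and both FGF10 libraries were above the others. The fold with FGF10 was 1.47 without DBZ (1.438 to 1.501) and 1.61 with DBZ (1.57 to 1.65). Pdia4 was at 66.7, 65.5, 85.6 and 88.6 FPKM, with the FGF10 libraries again higher. Pdia3, the isomerase that works with calnexin and calreticulin, was at 318, 378, 420 and 415 FPKM, and +N was the lowest. The median log2 ratio with FGF10 of these 3 genes was 0.40 without DBZ and 0.43 with DBZ, and that with DBZ was -0.02 without FGF10 and 0.05 with FGF10.

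In the translocon, Sec61a1, which encodes the channel, was at 63.4 (+N) and 75.7 (+NF) FPKM without DBZ and at 78.5 (+ND) and 96.4 (+NFD) FPKM with DBZ. It shares 673 bases with Gm44170 on the opposite strand, at 45.4 to 57.6 FPKM. Sec61b, the β subunit of the channel, was at 214, 200, 202 and 272 FPKM, and Ssr1, which encodes TRAP-α, at 20.0, 21.3, 24.3 and 19.4. +NFD was thus the highest library for the Sec61 genes and the lowest for Ssr1.

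**Figure D3:**
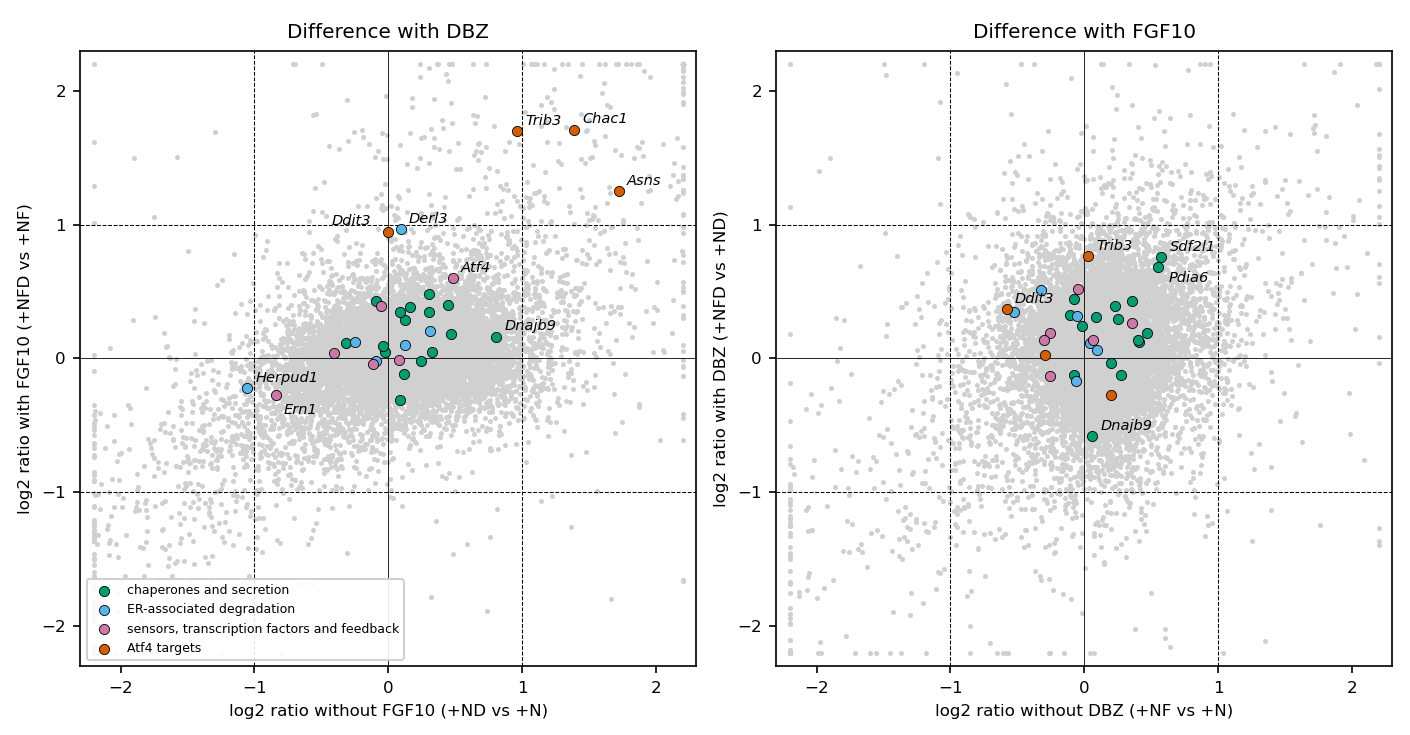
Log2 ratios of the members with DBZ (left, without FGF10 on the x axis and with FGF10 on the y axis) and with FGF10 (right, without DBZ on the x axis and with DBZ on the y axis), coloured by group, over all genes compared in gray. Dashed lines mark 2-fold, and gray values beyond the axes are drawn at the edge. With DBZ, Asns and Chac1 lay beyond 2-fold on both axes and Trib3 on one, whereas with FGF10 no member did.

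For FGF10, 0 of 32 members were at least 2-fold different in +NF against +N, where 5.19% of 13090 genes were (2.76% higher and 2.44% lower). In +NFD against +ND 0 members were, where 6.50% of 13293 genes were (3.39% higher and 3.11% lower). At 1.5-fold, 0 members differed without DBZ (9.97% of genes higher and 5.67% lower). On FPKM as deposited, without the added 1, the folds were 1.51 for Sdf2l1, 0.654 for Ddit3 and 0.473 for Derl3. With DBZ, Trib3, Sdf2l1 and Pdia6 were 1.5-fold higher (11.8% of genes) and 0 members lower (8.06%). The fold of Dnajb9 on FPKM as deposited was 0.658 in +NFD against +ND. The largest ratios were log2 0.58 (Sdf2l1) and -0.58 (Ddit3) without DBZ, and 0.76 (Trib3), 0.75 (Sdf2l1) and -0.58 (Dnajb9) with DBZ. The median log2 ratio of the chaperone and secretion genes was 0.24 without DBZ and 0.27 with DBZ, above the medians of all genes by 0.13 and 0.17. The median of the Atf4 targets was -0.13 and 0.20. The ratio was above 0 in 12 of 16 chaperone and secretion genes in both comparisons, where 65.7% and 59.0% of genes compared were above 0. After centring on the median of all genes, Dnajb9 and Hyou1 turned below 0 without DBZ.

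Across the members, 16 of 32 had a higher level with DBZ on both backgrounds and 4 had a lower level on both, against 37.9% and 22.4% of the 12428 genes compared in all comparisons. After the same centring, Manf and Derl3 left the first count, and Ssr1, Atf6 and Xbp1 joined the second. The 2 DBZ comparisons share no library. At least 2-fold higher in both were 2 members (Asns and Chac1), or 6.25% of members, against 1.45% of all genes. With FGF10, which also gives comparisons that share no library, 14 members were higher on both backgrounds and 3 lower on both, against 39.9% and 14.5% of genes.

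Herpud1 had the log2 ratio farthest from 0 among the members of ER-associated degradation, in +ND against +N. It encodes an ER membrane protein that organises the degradation complex, and lies at chr8:94386438-94395377 on the plus strand. It was at 97.4 (+N) and 77.7 (+NF) FPKM without DBZ and at 46.3 (+ND) and 66.5 (+NFD) FPKM with DBZ. +ND was the lowest library and +N the highest, and the fold with DBZ was 0.475 without FGF10 (0.451 to 0.501) and 0.856 with FGF10 (0.818 to 0.895). Its promoter window holds a CARE, and its order of media differed from that of Asns and Chac1.

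Within the E3 ligase complex of this pathway, Syvn1 and Sel1l varied less among the media than Herpud1. Syvn1, which encodes the ligase Hrd1, was at 23.0 (+N) and 22.1 (+NF) FPKM without DBZ and at 19.2 (+ND) and 24.2 (+NFD) FPKM with DBZ, and its partner Sel1l at 21.5, 20.2, 22.2 and 21.9. The FPKM ratio of Sel1l to Syvn1 stayed between 0.906 and 1.05. Syvn1 shares 83 bases with Mrpl49 on the opposite strand, which was at 15.0 to 22.8 FPKM. Edem1, a lectin that hands glycoproteins to degradation, ranged from 21.2 FPKM in +NF to 27.7 in +ND. Of the derlins, which form the exit channel, Derl1 ranged from 43.8 FPKM in +N to 50.2 in +NFD. Derl3 was at 1.37, 1.53, 0.648 and 2.21 FPKM in +N, +ND, +NF and +NFD, so the log2 ratios of this gene rest on an estimated 24 to 79 fragments. Its fold with DBZ in the presence of FGF10 was 3.42 (2.09 to 5.51), with a log2 ratio of 0.96 after the added 1.

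Of the 3 sensors, Ern1, which encodes Ire1α, was the one with the largest difference. It was at 16.9 (+N) and 16.3 (+NF) FPKM without DBZ and at 8.97 (+ND) and 13.3 (+NFD) FPKM with DBZ, with +ND the lowest. The fold with DBZ was 0.532 without FGF10 (0.499 to 0.567) and 0.816 with FGF10 (0.773 to 0.860). Eif2ak3 stayed between 8.43 and 9.67 FPKM in the 4 libraries. Atf6 was at 11.8 (+N) and 12.6 (+ND) FPKM without FGF10 and at 15.4 (+NF) and 15.3 (+NFD) FPKM with FGF10, and both FGF10 libraries were above the others.

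Xbp1, the factor whose RNA Ire1α splices, was at 99.5 (+N) and 83.1 (+NF) FPKM without DBZ and at 74.8 (+ND) and 85.4 (+NFD) FPKM with DBZ. The fold was 0.752 in +ND against +N (0.721 to 0.785), and the spliced form cannot be told apart from the unspliced in values per gene. Ppp1r15a, which encodes Gadd34, the subunit that directs dephosphorylation of eIF2α, was at 22.6 (+N) and 18.1 (+NF) FPKM without DBZ and at 21.8 (+ND) and 24.0 (+NFD) FPKM with DBZ. In +NFD against +NF its fold was 1.33 (1.24 to 1.42), and in +ND against +N it was 0.963 (0.896 to 1.04). Herpud1, Ern1 and Xbp1 shared +N as the highest library and +ND as the lowest.

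The other Atf4 target genes on a list of 39 symbols, of which 38 were in the table, were divided by function. Of 16 genes compared of amino acid supply, 15 were higher in +ND than in +N (background 58.2%). Of the 15, 8 were at least 2-fold higher (background 5.88%). In +NFD against +NF 16 were higher (background 57.2%), 3 of them by at least 2-fold (background 3.72%). The median log2 ratio of these genes with DBZ was 0.97 without FGF10 and 0.53 with FGF10. With FGF10 it was 0.36 without DBZ (12 of 16 above 0, background 65.7%). With FGF10 in the presence of DBZ it was -0.19 (4 of 16 above 0, background 59.0%). Slc7a11, the cystine transporter, was at 8.63 (+N) and 17.6 (+NF) FPKM without DBZ and at 44.4 (+ND) and 18.3 (+NFD) FPKM with DBZ, so that +ND stood alone. Slc7a1, a transporter of cationic amino acids, was at 7.96, 33.2, 15.0 and 25.4 FPKM, and Phgdh, the first enzyme of serine synthesis, at 15.6, 54.1, 28.6 and 47.8. Both were highest in +ND, next in +NFD and lowest in +N.

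Of 13 tRNA synthetase and export genes, 12 and 13 were higher with DBZ without and with FGF10 (background 58.2% and 57.2%). Their median log2 ratios were 0.43 and 0.32, and 0 were at least 2-fold higher (background 5.88% and 3.72%). The stress genes of the list had medians of -0.46 over 6 genes and 0.29 over 7. Nupr1, a stress-induced chromatin protein, was at 618 (+N) and 640 (+NF) FPKM without DBZ and at 217 (+ND) and 377 (+NFD) FPKM with DBZ, lower in both DBZ libraries. Of the 28 other Atf4 targets with a promoter window, 11 held a CARE (39.3%) and 0 an ERSE.

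The other ER genes were 73 of 74 symbols in the table, with sensors and transcription factors of the response counted among them. Their medians with DBZ were close to those of all genes, at 0.14 without FGF10 and 0.07 with FGF10. By part, the medians in +ND against +N were -0.05 (19 folding genes) and 0.20 (25 genes of translocation, signal peptidase and glycosylation). Those of 11 degradation genes and of 18 sensors and factors were 0.01 and 0.11. Of all 73, 0 were 2-fold different in +ND against +N (background 11.2%). In +NFD against +NF 1 was higher (background 3.72%) and 1 lower (background 2.69%). These were Atf5, a transcription factor related to Atf4, at 17.3, 27.5, 13.2 and 39.8 FPKM, and Eif2ak2, the double-stranded RNA-activated eIF2α kinase, at 16.0, 7.98, 17.6 and 6.68. Atf5 was highest in +NFD, as were Ddit3 and Trib3, and Eif2ak2 was lower in both DBZ libraries.

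With FGF10, the 19 other ER folding genes had a median log2 ratio of 0.32 without DBZ and 0.39 with DBZ. The medians of all genes were 0.12 and 0.09. Of the 19, 18 and 16 were above 0, against 65.7% and 59.0% of all genes compared. Prdx4, the ER peroxiredoxin, was at 24.4 (+N) and 21.4 (+ND) FPKM without FGF10 and at 54.3 (+NF) and 43.2 (+NFD) FPKM with FGF10, at least 2-fold higher in +NF than in +N. Fam129a, an Atf4-inducible gene counted here with ER-associated degradation, was at 25.8, 21.2, 92.7 and 69.3 FPKM, and Creb3l2, an ER-bound transcription factor of secretory cells, at 7.23, 6.92, 22.6 and 15.8. All 3 were higher in both FGF10 libraries than in both others. Of the 61 other ER genes with a promoter window, 1 held an ERSE (1.64%), 5 a UPRE (8.20%) and 3 a CARE (4.92%). Among genes at an FPKM of 1 or more in a library, the shares were 0.173%, 1.07% and 2.74%.

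For comparison, of 12 chaperones outside the ER 9 had a ratio above 0 with DBZ without FGF10 (background 58.2%). With FGF10, 10 did (background 57.2%). Their median log2 ratios were 0.39 and 0.13, where those of all genes were 0.10 and 0.05. In +ND 2 were at least 2-fold higher than in +N (background 5.88%). These, Hspd1 (66.6, 155, 92.96 and 106 FPKM) and Hspe1 (103, 215, 135 and 150 FPKM), encode the mitochondrial chaperonins. Both were highest in +ND.

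**Figure D4:**
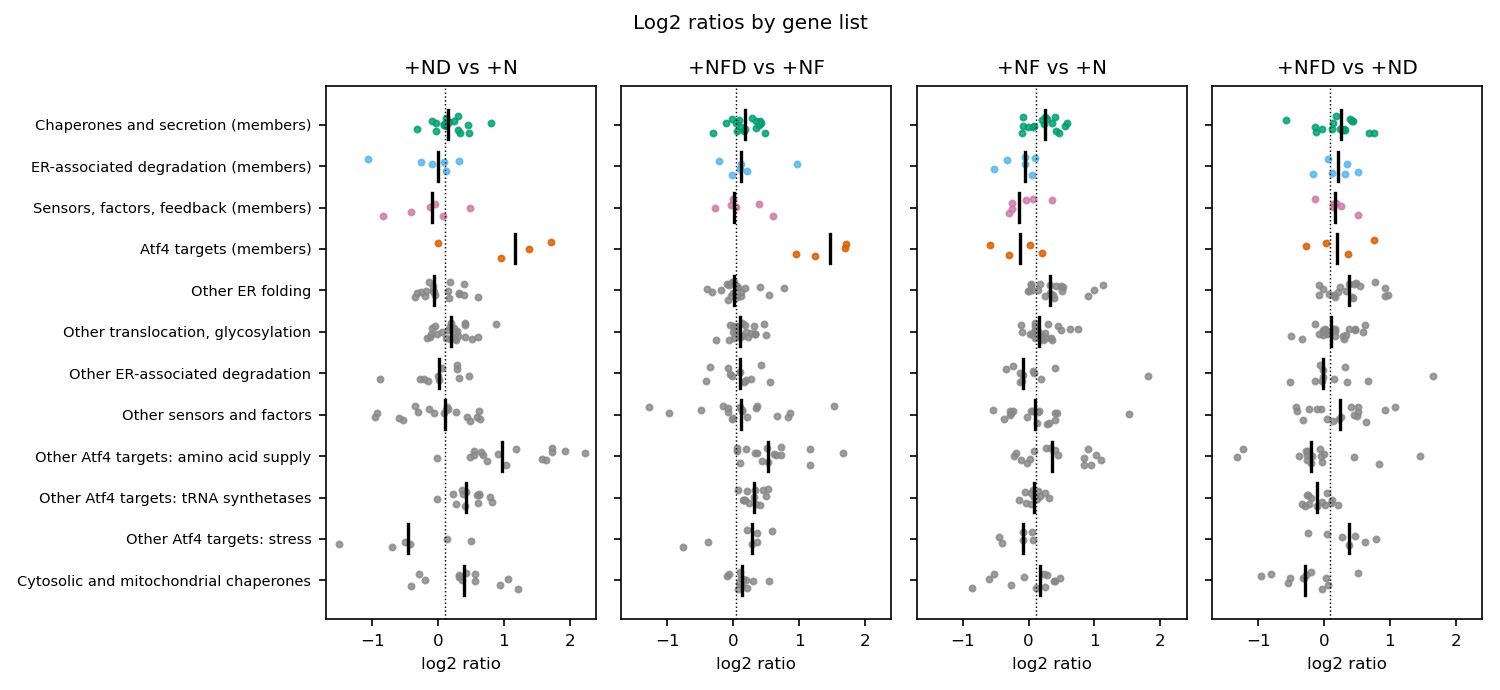
Log2 ratios of single genes (points) by list in the 4 comparisons, with the median of each list (black bar) and the median of all genes (dotted line). By their medians, the Atf4 targets and the amino acid supply genes lay to the right of the dotted line with DBZ. The chaperone and secretion genes lay to its right in all 4 comparisons, and other ER folding genes with FGF10. With FGF10, the amino acid supply genes lay to its right only in +NF against +N (0.36). The Atf4 targets did so only in +NFD against +ND (0.20).

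Markers of cell types also differed among the media. The epithelial genes Krt5 (4984 to 6582 FPKM) and Krt14 (5530 to 12652 FPKM) were abundant in every library. Of 7 epithelial markers, 6 were lower in +ND than in +N, 3 of them by at least 2-fold (Cdh1 at log2 -1.25, Krt14 at -1.19 and Epcam at -1.15), with a median log2 ratio of -0.81. In +NFD against +NF 4 of 7 were lower, 1 by at least 2-fold (Epcam), with a median of -0.08. The 7 summed to 20240, 11177, 15868 and 13226 FPKM, lowest in +ND, and most of each sum was Krt5 and Krt14. All 10 fibroblast markers were higher in +NFD than in +NF, with summed levels of 256, 228, 161 and 583 FPKM, the largest log2 ratio being that of Col3a1 (20.8, 12.3, 6.81 and 56.7 FPKM). Secretory ameloblast genes summed to 0.609, 0.411, 0.237 and 352 FPKM, almost all of it Amelx in +NFD. Of 10 macrophage markers 4 had a higher level in +ND than in +N (median log2 ratio -0.10), and 8 of 9 compared in +NFD than in +NF (median 0.32). The 10 summed to 743, 619, 528 and 487 FPKM, most of it Lyz2 (528, 408, 373 and 288 FPKM). Lyz2 was the 1 compared marker that was lower in +NFD than in +NF. Genes of secretory airway or gland epithelium summed to 765, 107, 1023 and 325 FPKM, lower in both DBZ libraries, and 4 or 5 of the 12 were at 0 in each. Of 6 compared in +ND against +N, 4 were lower. The other 2 were higher, Agr2 (0.315 in +N and 1.74 in +ND) and Spdef (0.370 and 2.54 FPKM). All 6 compared in +NFD against +NF were lower. The 6 endothelial and 8 B and plasma cell markers were near 0 in all libraries, with sums of at most 0.336 and 0.398 FPKM. The part of these cells in the levels of the members was not tested.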

How the data were processed

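The authors aligned trimmed reads to GRCm38 with TopHat 2.1.1, after FastQC 0.11.9 and Trim Galore 0.6.5, and deposited FPKM estimated with Cufflinks. The annotation release and strand setting are not given in the sources used here. Of 6 labelled samples, the +NJ and +NFJ samples with Jagged1 were not analysed here. The labels give the DBZ dose used above, and the methods text gives another unit. FPKM of entries with 1 symbol were summed, and genes were counted at a 2-fold ratio. Depth was taken from FPKM times length in 8409 genes with a single GENCODE M21 transcript of at least 1000 nt. Of these, 1181 to 1256 low values per library were used. Intervals are exact Clopper-Pearson. Fragment numbers of members were computed with the longest GENCODE M21 transcript, so where shorter transcripts are expressed they can be too high and the intervals too narrow. The depth estimate, 2-fold calls and intervals were tested on simulated data. Members and lists were chosen with earlier results of these data known. Every member is named, and of each other pathway and cytosolic chaperone list at most 3 genes, those with the largest ratios among genes at least 2-fold different with an FPKM of at least 5. Of cell type markers, defining genes whose level bears on a result are named. Hm13 and Slc7a5 were not analysed here. Tools were Python 3.11.15, scipy 1.17.1, pandas 2.3.3, numpy 2.4.6 and matplotlib 3.10.9.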

Additional observations from a re-analysis of the deposited data

Results flagged for a closer look

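The difference with FGF10 had opposite signs for Ddit3 without and with DBZ. Its log2 ratio was -0.58 in +NF against +N and 0.37 in +NFD against +ND, a difference of 0.95, and the counting interval of both ratios lay on 1 side of 0. The difference between the ratios was not tested, since each medium had 1 library. Opposite signs with FGF10 were also common, in 15 of 32 members and in 5661 of 12428 genes. The overlap of Ddit3 with Mars given above applies here as well.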

How the results depend on the processing

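Values were recomputed with upper-quartile scaling, with ratios centred on their median, with 0.1 or nothing added to FPKM, without the filter or with one at 5 FPKM, from the highest entry of each symbol, and at 1.5-fold. Of 88 recomputed counts and medians, 79 did not move and 0 reversed. The chaperone and secretion median was 0.032 (upper-quartile) and 0.043 (centred) in +ND against +N, 0.17 and 0.13 in +NF against +N, and 0.17 (centred) in +NFD against +ND. Upper-quartile scaling moved the median of all genes in +ND against +N from 0.10 to about 0. At 1.5-fold, 6 members differed in +ND against +N (4 higher, 2 lower), 6 in +NFD against +NF (higher), 0 in +NF against +N and 3 in +NFD against +ND (higher). With nothing added to FPKM, Derl3 was also 2-fold different in +NF against +N (1 member), and 4 members were in each DBZ comparison, with Trib3 added without FGF10 and Derl3 with FGF10. Centring left 615 genes 2-fold higher and 842 lower in +ND against +N (774 and 697 before), 248 and 412 in +NF against +N (361 and 319), and 345 and 506 in +NFD against +ND (450 and 414). Of 890 recomputed ratios of single members, 756 stayed within counting error, 4 came out higher and 130 lower, and 0 reversed a 2-fold call. No paired analysis was possible because each medium had 1 library.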
